A study of Arabidopsis thaliana with 128 samples.

Results

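The 10 genes that plant laboratories commonly use to normalise quantitative PCR were followed here through a block of transcription in Arabidopsis thaliana seedlings. They are ACT2 (AT3G18780), ACT7 (AT5G09810), ACT8 (AT1G49240), UBQ10 (AT4G05320), GAPC1 (AT3G04120), EF1a (AT5G60390), PP2AA3 (AT1G13320), TIP41-like (AT4G34270), SAND (AT2G28390) and UBC21 (AT5G25760). All 10 were found by locus identifier among 28775 genes, and all 10 passed the filter on low values. The lowest count of any of them in any library was 73 reads, for UBC21.

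Total RNA depleted of ribosomal RNA was sequenced from whole 5-d-old seedlings grown at 22 °C in constant light, with 50 to 60 seedlings of a genotype pooled for each replicate. Every group received 1 mM cordycepin, an adenosine analogue that stops transcription, by vacuum infiltration, and was sampled before and at 7.5, 15 and 30 min, then after 60, 120, 240 and 480 min. The 4 genotypes differ at VARICOSE (VCS), a scaffold of the mRNA decapping complex, and SUPPRESSOR OF VARICOSE (SOV), a DIS3L2-type exoribonuclease working inwards from the 3′ terminus. WT here is Col-0 with a SOV transgene from L.er, and sov is Col-0 without it, a natural accession that lacks functional SOV. The genotype vcs carries the vcs-7 allele and the SOV-L.er transgene, and vcs sov carries vcs-7 alone. The promoter of the transgene is not given in the sources used here. There were 32 groups with 4 libraries in each, which the labels number as biological replicates, so p-values measure the spread between those libraries. The labels record that a pair of libraries at 60 min, replicate 3 of vcs and of vcs sov, were relabelled after a tube swap.

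A reference transcript is useful when its level stays at a fixed proportion of the RNA in every sample compared. Cytoplasmic mRNAs are removed mainly by shortening of the poly(A) tail, followed by decapping and 5′-to-3′ decay or by 3′-to-5′ decay. After a block of transcription, mRNAs that are degraded slowly make up a growing share of what remains, and those degraded quickly a shrinking one. Actins form the microfilaments of the cytoskeleton, and ACT2, ACT7 and ACT8 are the actins of vegetative tissue. UBQ10 encodes a chain of ubiquitin units that is cut into free ubiquitin. GAPC1 is a cytosolic glyceraldehyde-3-phosphate dehydrogenase of glycolysis, and EF1a delivers aminoacyl-tRNA to the ribosome. PP2AA3 is a scaffold subunit of protein phosphatase 2A, TIP41-like resembles the TIP41 regulator of yeast TOR signalling, SAND encodes a MON1-type protein of membrane traffic to the vacuole, and UBC21 (also PEX4) is a peroxisomal ubiquitin-conjugating enzyme.

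Several of these genes have close relatives, which bears on how reads are assigned. Repeat units within UBQ10 and the coding starts of the vegetative actins are shown. No stretch that separates UBQ10 or EF1a from its relatives is shown. The coding sequence of UBQ10 (1374 nt, RefSeq annotation of TAIR10.1, as for all sequences here, matched by locus identifier) holds 6 repeat units of 228 nt in a row. Capitals mark the 69 positions at which the 6 units are not all the same, 59 of them at the third base of a codon. The first and second units, printed 5′ to 3′ on the coding strand, show how closely the repeats follow each other:
UBQ10 repeat unit 1: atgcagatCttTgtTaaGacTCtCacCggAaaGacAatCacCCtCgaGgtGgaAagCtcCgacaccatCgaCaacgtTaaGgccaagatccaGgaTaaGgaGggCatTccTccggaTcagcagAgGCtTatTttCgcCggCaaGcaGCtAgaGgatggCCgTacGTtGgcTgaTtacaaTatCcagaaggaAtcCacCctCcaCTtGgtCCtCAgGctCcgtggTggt
UBQ10 repeat unit 2: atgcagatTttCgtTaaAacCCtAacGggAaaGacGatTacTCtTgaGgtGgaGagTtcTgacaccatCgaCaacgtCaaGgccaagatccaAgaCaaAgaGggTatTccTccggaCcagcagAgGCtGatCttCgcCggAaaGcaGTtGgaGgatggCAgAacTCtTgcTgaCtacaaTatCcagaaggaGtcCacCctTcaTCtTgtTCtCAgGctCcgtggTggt
Pairs of units were 78.95% to 92.98% identical. The first 120 nt of the coding sequences of the vegetative actins follow, with capitals in ACT8 and ACT7 at positions that differ from ACT2:
ACT2 coding start: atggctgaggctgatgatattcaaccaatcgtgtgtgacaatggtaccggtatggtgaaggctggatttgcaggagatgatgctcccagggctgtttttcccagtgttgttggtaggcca
ACT8 coding start: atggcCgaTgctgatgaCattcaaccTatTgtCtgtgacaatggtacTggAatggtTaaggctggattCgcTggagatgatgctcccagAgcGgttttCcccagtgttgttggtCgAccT
ACT7 coding start: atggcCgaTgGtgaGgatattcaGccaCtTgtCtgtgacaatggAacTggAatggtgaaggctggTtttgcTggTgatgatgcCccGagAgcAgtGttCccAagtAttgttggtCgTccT
ACT8 differed from ACT2 at 17 of these positions and ACT7 at 25. Over the whole coding sequence of 1134 nt, ACT2 and ACT8 were 91.0% identical, ACT2 and ACT7 82.5%, and ACT7 and ACT8 83.5%. EF1a was 93.8% to 93.9% identical to each of its 3 sister genes, and GAPC1 was 89.9% identical to GAPC2. Of all stretches of 50 nt in the transcript, 7.18% in UBQ10 and 6.01% in EF1a also occurred in a transcript of another gene, and at most 0.49% in any of the other 8. At 100 nt the share was 0.415% in UBQ10, all with UBQ11, and 0 in the rest. How shared reads were handled, which bears on UBQ10 and EF1a, is not given in the sources used here.

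Reads in genes ran from 11.5 to 37.3 M a library (median 21.7 M), and 3 reads corresponded to 0.0803 to 0.261 RPM (reads of a gene per M reads in all genes), a floor that covers counting error only. At 0 min nuclear genes took 49.1% ± 1.8 of WT reads, 51.3% ± 0.93 of sov reads, 63.2% ± 1.32 of vcs reads and 73.5% ± 1.66 of vcs sov reads (SD, n = 4), the rest being mostly plastid RNA. RPM recomputed over nuclear genes alone, called nuclear RPM, is the scale of every level below unless another is named. Of the genes altered by genotype, VCS differed by -4.15 (log2) in vcs against WT and -3.34 in vcs sov against sov. SOV differed by 2.03 and 2.61 there, between genotypes alike in SOV, so these values do not check the sov label. The SOV difference in sov against WT and in vcs sov against vcs is not given here. All 9 markers of leaf, root hair, vascular and stomatal cells had reads, although EXPA7 and SPCH reached 0 reads in single libraries. In vcs against WT, 1 of the 9 was higher and 3 were lower, where limma called 49.4% of all genes, and in vcs sov against sov 3 were higher and 5 lower, where it called 69.6%. The sum of the 9 markers ran from 25974 to 31999 nuclear RPM in the WT libraries at 0 min, from 27014 to 35709 in sov, from 26161 to 34907 in vcs and from 12087 to 15609 in vcs sov, nearly all of it from the 2 leaf mesophyll genes (25801 to 31815 in WT). The 4 vascular markers summed to 147 to 173 nuclear RPM in WT, 154 to 164 in sov, 194 to 215 in vcs and 185 to 328 in vcs sov. In whole seedlings, fewer cells of a type and less RNA per cell cannot be told apart, and the part of these differences in the results below was not tested.

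Levels per length are the scale on which genes can be compared with one another. In the authors' deposited table, mean RPKM (RPM divided by transcript length in kilobases) in WT at 0 min was 600.1 for EF1a, 322 for UBQ10, 272 for GAPC1, 164 for ACT2, 93.6 for ACT8 and 73.6 for ACT7. Far below these stood UBC21 at 12, PP2AA3 at 11.3, SAND at 7.50 and TIP41-like at 7.40 in the same deposited table. In vcs sov at 0 min, the authors' deposited mean RPKM was highest for UBQ10, at 907, above EF1a at 719.5, and ACT7 at 224 stood above ACT2 at 193. The deposited means carry no spread, so neighbours in this order were not tested, and RPKM there includes plastid reads.

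The first comparisons ask whether the level of each reference transcript before transcription was blocked depended on the decapping scaffold or on SOV. ACT7, UBQ10, UBC21 and SAND were higher in both vcs backgrounds than in their VCS counterparts, and PP2AA3 was slightly lower. ACT8 was higher in vcs sov against sov alone, while ACT2, GAPC1, EF1a and TIP41-like passed the test in neither comparison. ACT7 moved furthest, by 1.68-fold in vcs against WT and 2.31-fold in vcs sov against sov. The widest ratio of changes between a pair of members was 2.01-fold in vcs against WT (ACT7 against PP2AA3) and 2.85-fold in vcs sov against sov (ACT7 against EF1a).

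ACT7 stood at 266, 408, 295 and 254 nuclear RPM in the 4 WT libraries at 0 min, and at 229, 307, 295 and 261 in sov. In vcs it stood at 351, 624, 480.5 and 626, and in vcs sov at 631, 825, 601 and 493. The vcs sov libraries all lay above every WT and sov library, and the lowest vcs library lay below the highest WT library. In limma with Benjamini-Hochberg adjustment over 19343 genes, ACT7 was higher by 0.75 (SE 0.19, adjusted p = 0.00391) in vcs against WT and by 1.21 (SE 0.19, adjusted p = 2.64e-05) in vcs sov against sov, on log2 of nuclear RPM plus 0.5. The call in vcs was lost without replicate 4 (log2 0.57, adjusted p = 0.0514).

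The WT libraries at 0 min held 1200.1, 1278, 1482 and 1224 nuclear RPM of UBQ10 and the sov libraries 1119.7, 1241, 1516 and 1459.6. The vcs libraries held 1615, 2061, 2099.7 and 2068, and the vcs sov libraries 1955, 2627, 2749 and 2799.9. No vcs or vcs sov library overlapped with WT or sov. UBQ10 was higher by 0.59 (SE 0.13, adjusted p = 0.00122) in vcs, by 0.92 (SE 0.13, adjusted p = 5.92e-06) in vcs sov against sov, and by 0.36 (adjusted p = 0.0268) in vcs sov against vcs, all by limma. The last call was lost without replicate 2, 3 or 4 (adjusted p = 0.0985, 0.0828 and 0.104).

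UBC21, a far less abundant transcript, moved as tightly. It read 22.5, 23.1, 22.4 and 23.8 nuclear RPM in WT and 18.6, 23.2, 22.4 and 23.3 in sov. In vcs it read 27.6, 30.0, 31.3 and 33.1, and in vcs sov 32.6, 32.2, 31.8 and 33.0. The groups with and without functional VCS did not overlap, and the limma difference was 0.40 (adjusted p = 0.000763) in vcs and 0.56 (adjusted p = 9.73e-06) in vcs sov against sov. SAND was at 40.3 ± 3.49 nuclear RPM in WT, 43.6 ± 4.38 in sov, 53.1 ± 8.41 in vcs, then 55.8 ± 8.0 in vcs sov (SD, n = 4). Its increases of 0.38 (adjusted p = 0.0123) and 0.35 (adjusted p = 0.0151) passed the limma test. The first was lost without replicate 3 (adjusted p = 0.0586) and the second without replicate 1 (adjusted p = 0.0814) or replicate 4 (adjusted p = 0.0659).

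PP2AA3 went the other way. It stood at 59.4, 59.0, 52.8 and 60.2 nuclear RPM in WT, 48.6, 52.2, 55.2 and 52.5 in sov, 46.9, 48.6, 50.1 and 47.9 in vcs, and 43.8, 41.5, 46.6 and 41.2 in vcs sov. All vcs libraries lay below all WT libraries and all vcs sov libraries below all sov libraries. The limma differences were -0.25 (adjusted p = 0.00737) and -0.27 (adjusted p = 0.00311), and the first was lost without replicate 2 (adjusted p = 0.0519) or replicate 4 (adjusted p = 0.0633).

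ACT2 and ACT8, the most alike pair of actins in sequence, did not move together between the 2 vcs genotypes. ACT2 was at 726 ± 68.5 nuclear RPM in WT, 649 ± 49.95 in sov, 749.8 ± 75.98 in vcs, then 587 ± 91.0 in vcs sov, and ACT8 at 388 ± 27.5, 378 ± 39.6, 391 ± 30.7 and 465.5 ± 29.7 (SD, n = 4). From vcs to vcs sov, ACT2 was lower by -0.36 (adjusted p = 0.0135) and ACT8 higher by 0.25 (adjusted p = 0.0273) in limma. The ACT2 call was lost without replicate 3 or 4 (adjusted p = 0.0692 and 0.159) and the ACT8 call without replicate 1 or 2 (0.131 and 0.125). ACT8 also exceeded its sov level in vcs sov, by 0.30 (adjusted p = 0.00734), a call lost without replicate 2 (adjusted p = 0.0905). EF1a, not called in vcs sov against sov (-0.30, adjusted p = 0.0765), was called lower there without replicate 1 (-0.48, adjusted p = 0.00231). GAPC1 and EF1a varied among the vcs sov replicates more than elsewhere. GAPC1 was at 1507, 1153, 1046 and 810.2 there against 969 to 1080.3 in WT, and EF1a at 2847, 2178, 1902 and 1513 against 2394 to 2708 in WT. Replicate 4 of vcs sov held the least ACT2, ACT7, GAPC1 and EF1a of its group at both 0 and 7.5 min, with EF1a at 1513 and 1491, and of none of them from 15 to 60 min, with EF1a at 2089 at 15 min. The same-numbered correlation with its 0-min library was 0.70 at 7.5 min and 0.14 to 0.29 at later times. Without replicate 4, GAPC1 was called higher in vcs sov against vcs at 0 min (0.44, adjusted p = 0.0319 in limma; 0.23, adjusted p = 0.206 with it). TIP41-like stayed between 18.0 and 27.3 nuclear RPM in all 16 libraries at 0 min.

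**Figure D1:**
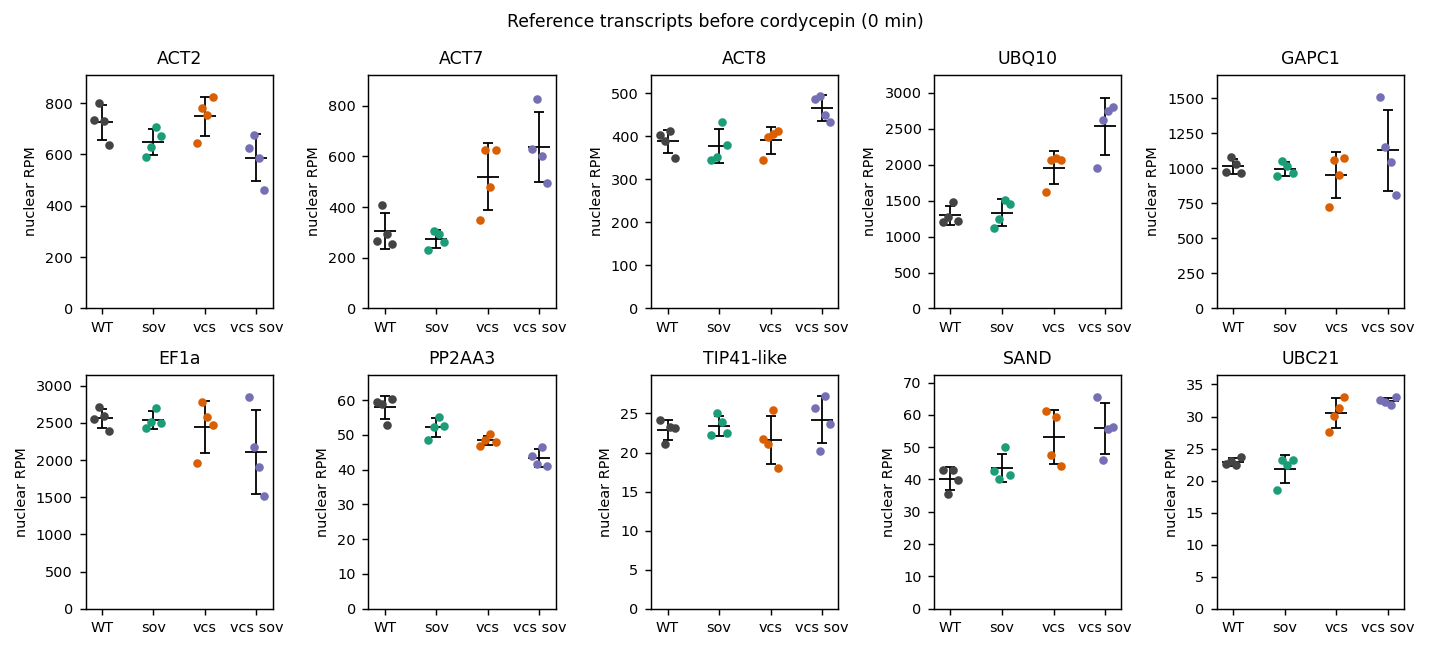
Levels of the 10 reference transcripts before cordycepin, in nuclear RPM from 0 (linear axes, one panel a gene). Points are the 4 libraries of each genotype and bars the mean ± SD. The means of ACT7, UBQ10, UBC21 and SAND stand higher in vcs and vcs sov, that of PP2AA3 lower, and EF1a and GAPC1 spread most in vcs sov.

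In all, limma called 4 members higher and 1 lower in vcs against WT, where 49.4% of all 19343 genes were called, 36.3% higher and 13.1% lower. It called 5 higher and 1 lower in vcs sov against sov, where 69.6% of genes were called, 42.5% higher and 27.1% lower. In vcs sov against vcs it called 2 higher and 1 lower, where 55.4% were called, 26.6% higher and 28.8% lower. Without replicate 4 the count in vcs against WT was 3, and in vcs sov against vcs it was 1 without replicate 2 or 3 and 2 without replicate 4. The share of all genes called in those refits is not given here, so their counts are not a result about the members. The median member differed by 0.03 in vcs and 0.23 in vcs sov against sov, beside 0.17 for the median of all genes in both. In sov against WT, limma called no member, with differences from -0.16 to 0.11 and none at an unadjusted p under 0.05, where 0.0414% of all genes (8) were called. edgeR and DESeq2 on recovered reads also called no member there, each with 1 at an unadjusted p under 0.05. The interaction, which asks whether the vcs effect differs with and without SOV, called no member in limma with 1 at an unadjusted p under 0.05 (40.2% of all genes called). There edgeR and DESeq2 called 1 member each, and their shares of all genes called are not given here.

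These directions depend in part on the scale. On RPM as deposited, in which plastid reads count towards the total, the median gene stood 0.49 above WT in vcs and 0.63 above sov in vcs sov. Over all genes the split moved as well: 7022 higher and 2528 lower calls in vcs against WT on nuclear RPM became 13071 and 935 on RPM as deposited and 3937 and 5155 when centred on the median. Against sov, vcs sov changed likewise: 8216 higher and 5243 lower calls became 12971 and 2504 on RPM as deposited and 6375 and 7085 when centred. On RPM as deposited all 10 members had positive differences in both comparisons, including PP2AA3 at 0.11 and 0.25, and 6 and 9 members were called higher. ACT7 (1.12 and 1.72), UBQ10 (0.96 and 1.44), UBC21 (0.75 and 1.06) and SAND (0.74 and 0.85) lay above the median gene on that scale too, and PP2AA3 below it. Centred on the median of all genes, ACT7 (0.53 and 1.01) and UBQ10 (0.37 and 0.72) stayed called higher and PP2AA3 (-0.48 and -0.47) called lower in both comparisons. UBC21, at 0.18 and 0.36, was then called in vcs sov against sov alone, and SAND, at 0.16 and 0.15, in neither. ACT8 (-0.21) and TIP41-like (-0.32) were then called lower in vcs, and ACT2 (-0.36) and EF1a (-0.50) in vcs sov against sov. The authors' deposited table of DESeq2 results lists ACT7 at 0.59 (adjusted p = 0.000159), UBQ10 at 0.42 (adjusted p = 5.09e-06) and PP2AA3 at -0.43 (adjusted p = 1.97e-07) for vcs SOV against VCS SOV. For vcs sov against VCS sov the authors' deposited table gives 1.07, 0.79 and -0.39. The samples behind those values are not given in the sources used here.

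A ratio of 2 transcripts in the same library is free of the choice of scale, and it is the quantity that quantitative PCR reports. Each library was scaled to 1 member in turn and all genes were refitted with limma, which gave the 45 ratios among the 10 members. In 1 simulated data set, a fit scaled to PP2AA3 alone made many false calls. The calls of these fits are therefore counts without a kept error rate, and their adjusted p may be too small. In vcs against WT, 22 of 45 ratios were called, where 44.1% of the ratios of all genes to 9 of the members, those used as denominators, were called. Between vcs sov and sov, 32 were called, where 66.6% of such ratios were called, and in vcs sov against vcs 14, where 48.3% were called. None was called in sov against WT, where 0.0333% were called. The ratios share members and libraries, so they are not independent of one another.

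The widest differences were in ratios to ACT7. PP2AA3 over ACT7 was lower by -1.01 (SE 0.23, adjusted p = 0.000738) in vcs, EF1a over ACT7 by -1.51 (SE 0.23, adjusted p = 2.52e-07) in vcs sov against sov, and ACT7 over ACT2 higher by 0.71 in vcs and 1.36 in vcs sov. Of the 9 ratios that hold ACT7, 6 were called in vcs and 8 in vcs sov against sov. Scaled to ACT7, 9916 and 15263 of all 19342 genes were called in those comparisons. UBQ10 gave the same 6 and 8, where 10610 and 15053 of 19342 genes were called on that reference. The ratio of UBQ10 to ACT7 itself passed in no comparison (-0.16 and -0.29). Ratios of ACT2 to EF1a, of PP2AA3 to ACT2 or EF1a, of GAPC1 to ACT8, of SAND to GAPC1 or UBC21, and of TIP41-like to GAPC1, EF1a or ACT8 likewise passed in none of the 4 comparisons. From vcs to vcs sov, 7 of the 9 ratios that hold ACT2 were called, where 10652 of all 19342 genes were called on that reference. The widest of these ratios was UBQ10 over ACT2 at 0.72. Over the 16 libraries at 0 min, the pair with the least spread was ACT2 and EF1a, whose log2 ratio had an SD of 0.163.

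**Figure D2:**
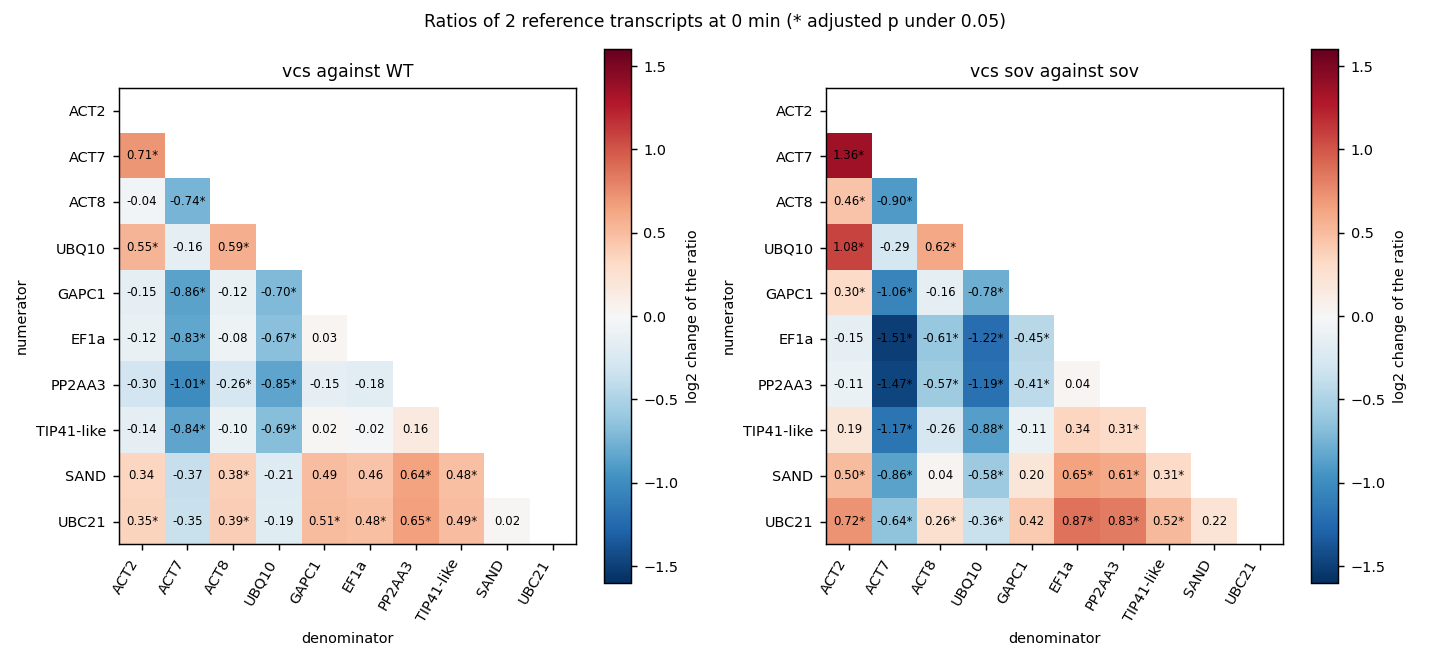
Log2 change in the ratio of 2 reference transcripts at 0 min, numerator in rows and denominator in columns, for vcs against WT and vcs sov against sov (n = 4 libraries a genotype). Stars mark a limma adjusted p under 0.05; the deepest colours belong to ratios that hold ACT7, from -1.51 for EF1a over ACT7 to 1.36 for ACT7 over ACT2.

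The counts of called genes differed widely between references. With every library scaled to PP2AA3, limma called 11462 genes higher and 1111 lower in vcs against WT. With the same libraries scaled to ACT7, it called 576 higher and 9340 lower, and scaled to UBQ10, 1196 higher and 9414 lower. For vcs sov against sov, scaling to EF1a gave 9721 higher and 2583 lower, and scaling to ACT7 gave 1086 higher and 14177 lower. GAPC1 gave the most even split there, with 5158 higher and 5048 lower. An error in the level of the single reference moves all genes of such a fit together, and these counts are subject to the false calls seen on simulated data.

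The time course asks how each transcript's share changed once transcription was blocked. UBQ10 fell steeply in every genotype, SAND and UBC21 fell in WT and sov, TIP41-like passed the 480-min test in neither, and ACT2, ACT7, ACT8, GAPC1, EF1a and PP2AA3 took a growing share of nuclear reads. By 480 min, the members had drawn apart by 8.22-fold in WT (UBQ10 against EF1a), 8.47-fold in sov (UBQ10 against ACT7), 10.1-fold in vcs (UBQ10 against EF1a) and 4.73-fold in vcs sov (UBQ10 against ACT7).

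UBQ10 in WT went from 1296 ± 128.3 nuclear RPM at 0 min to 718 ± 71.5 at 120 min and 276.04 ± 3.72 at 480 min (SD, n = 4). Its 4 libraries at 480 min read 271, 277, 279.8 and 276 in WT, 301, 285, 286 and 295 in sov, 330.4, 307, 374 and 288 in vcs, and 800.5, 759, 732 and 832 in vcs sov. The vcs sov libraries thus held more UBQ10 at 480 min than any other library at that time. The limma change from 0 min was -2.22 (SE 0.10) in WT, -2.18 in sov, -2.59 in vcs, then -1.68 in vcs sov, with adjusted p from 1.95e-43 to 1.35e-28 over 19855 genes. UBQ10 first passed the test at 15 min in sov (-0.42) and at 30 min in WT (-0.44), vcs (-0.52) and vcs sov (-0.53). No other member passed as early in WT, sov or vcs, and PP2AA3 passed at the same time in vcs sov (0.24, adjusted p = 0.0396). With the time course as a replicate block, limma called UBQ10 at 15 min in vcs (-0.27, adjusted p = 0.0293), and ACT7 (adjusted p = 0.0335) and EF1a (adjusted p = 0.0382) at 30 min in vcs sov.

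SAND in WT fell from 42.8, 35.6, 43.0 and 39.7 nuclear RPM at 0 min to 20.2, 17.4, 19.2 and 21.1 at 480 min, and in sov from 43.6 ± 4.38 to 18.9 ± 2.90. In vcs it went from 61.2, 47.7, 59.3 and 44.2 to 47.5, 34.98, 43.8 and 30.9, and in vcs sov from 65.5, 45.9, 55.6 and 56.1 to 68.9, 50.5, 63.3 and 45.1. The WT ranges at the 2 times did not overlap, and the vcs sov ranges did. Its change was -1.03 (adjusted p = 2.09e-09) in WT, -1.19 (adjusted p = 1.3e-11) in sov, -0.44 (adjusted p = 0.00717) in vcs and 0.02 (SE 0.15, adjusted p = 0.914) in vcs sov by limma. UBC21 fell by -0.49 in WT (adjusted p = 1.01e-05) and by -0.46 in sov (adjusted p = 2.48e-05). In vcs it changed by 0.16, which did not pass, and in vcs sov it was higher by 0.34 (adjusted p = 0.00238). TIP41-like changed by -0.17 in WT, -0.07 in sov and 0.19 in vcs, none of which passed, and by 0.36 (adjusted p = 0.00351) in vcs sov. The vcs value of TIP41-like passed in limma with the replicate block (adjusted p = 0.0241).

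EF1a went from 2562 ± 129.5 to 4524 ± 552 nuclear RPM in WT (SD, n = 4), a log2 change of 0.81 (adjusted p = 4.51e-09), with 0.79 in sov, 0.74 in vcs, then 0.43 in vcs sov. ACT7 rose by 0.75, 0.90, 0.57 and 0.56 in the same genotype order, GAPC1 by 0.71, 0.64, 0.64 and 0.55, and ACT2 by 0.61, 0.72, 0.43 and 0.32. ACT8 rose by 0.39, 0.44, 0.28 and 0.23 in the same order. PP2AA3 rose by 0.19, 0.29, 0.39 and 0.49, and all of these passed the limma test, the WT value of PP2AA3 being lost without replicate 2 or 3.

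**Figure D3:**
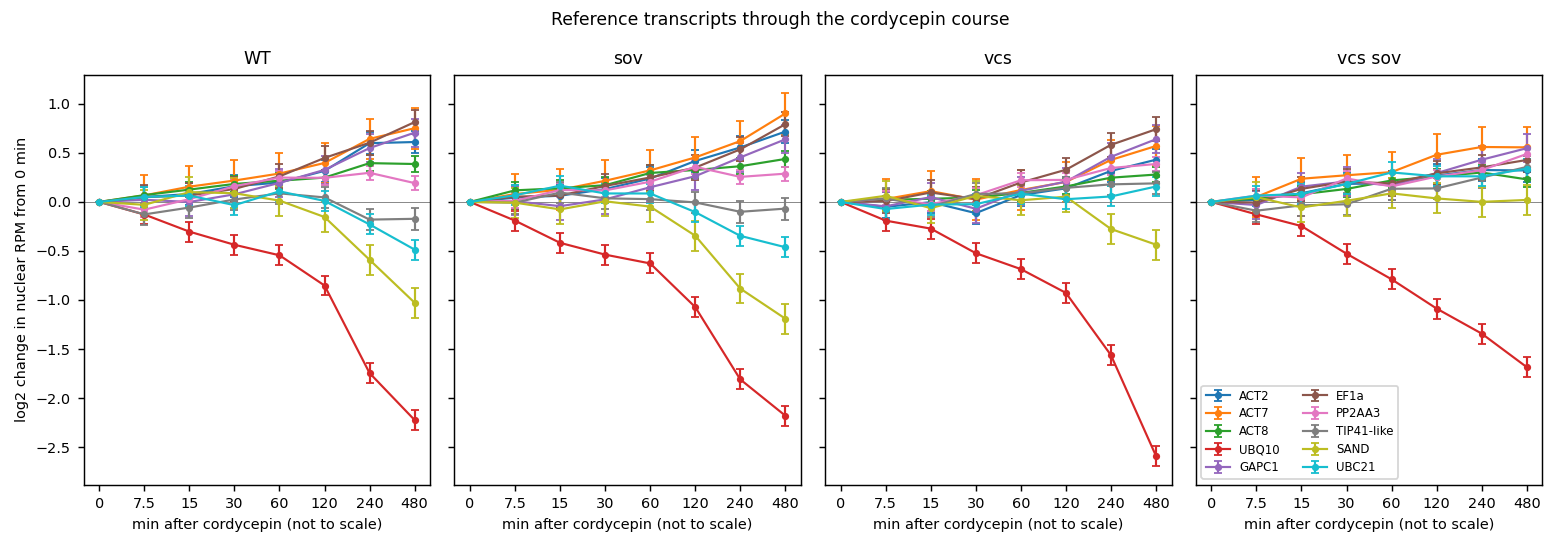
Log2 change in nuclear RPM from 0 min for the 10 reference transcripts at 8 times after cordycepin (times evenly spaced, not to scale), one panel a genotype. Points are limma estimates from 4 libraries a time and bars their SE; UBQ10 ends at -2.22 in WT and -1.68 in vcs sov, and SAND at -1.03 in WT and 0.02 in vcs sov.

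In WT, limma called 1 member by 30 min (16.7% of all 19855 genes called), 3 by 60 min (40.4%), 6 by 120 min (60.9%) and 9 by both 240 min (74.3%) and 480 min (80.5%). At 480 min it called 6 members higher and 3 lower in WT, where 13.6% of all genes were higher and 66.8% lower. In sov it called 6 higher and 3 lower (81.3% of genes called, 13.3% higher and 67.9% lower). In vcs it called 6 higher and 2 lower (78.3%, 12.8% and 65.6%), and in vcs sov 8 higher and 1 lower (65.1%, 17.7% and 47.4%). Without replicate 4 the count in vcs sov was 5 rather than 9, the lost members being ACT2 (0.18), ACT7 (0.39), ACT8 (0.19) and EF1a (0.33). The share of all genes called in that refit is not given here, so the lower count is not a result about the members. The median member changed by 0.29, 0.36, 0.33 and 0.35 in the 4 genotypes in that order, while the median gene changed by -0.78, -0.83, -0.70 and -0.30.

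A scale to total reads cannot show a fall of all transcripts together, so these values are relative to the rest of the nuclear RNA. Nuclear share fell with time, to 39.1% in WT and 67.2% in vcs sov at 480 min. On RPM as deposited, the WT changes were 0.49 for EF1a, 0.06 for ACT8, -0.13 for PP2AA3, -0.48 for TIP41-like, -0.78 for UBC21, -1.32 for SAND and -2.55 for UBQ10. Centred on the median of all genes, they were 1.84, 1.41, 1.21, 0.85, 0.54, -0.01 and -1.20, so that the fall of UBC21 turned to a positive value and that of SAND was not called. UBQ10 was called lower on all of these scales in every genotype, and within a genotype each scale shifts all members together. In the authors' deposited table, means scaled to 1 at 0 min and corrected by the authors stood below 1 for every member at 480 min. There UBQ10 was at a ratio of 0.112 in WT, 0.112 in sov, 0.0921 in vcs, then 0.19 in vcs sov, SAND at 0.254, 0.222, 0.411 and 0.631, and EF1a at 0.924, 0.888, 0.922 and 0.812.

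Whether the 480-min change itself differed between genotypes was tested as a contrast of changes, added after the data had been seen. In vcs against WT, limma called 3 members, where 31.0% of all genes were called. The change was higher in vcs for SAND (0.59, adjusted p = 0.0269) and UBC21 (0.64, adjusted p = 0.000221), and lower for UBQ10 (-0.37, adjusted p = 0.0415). At 480 min itself, UBQ10 stood at 330.4, 307, 374 and 288 nuclear RPM in vcs. Those libraries all lay above the WT ones, at 271, 277, 279.8 and 276. The UBQ10 call was lost without replicate 2 (adjusted p = 0.236) or replicate 4 (adjusted p = 0.317), and that of SAND without replicate 2 (adjusted p = 0.0944) or 3 (adjusted p = 0.137). Between vcs sov and sov, 5 were called, where 51.1% of genes were called. SAND led with 1.21 (SE 0.22, adjusted p = 1.2e-06), then UBC21 with 0.80, UBQ10 with 0.50, TIP41-like with 0.42 and ACT2 with -0.40 (adjusted p = 0.032). The ACT2 call was lost without replicate 1, 2 or 3 and that of TIP41-like without replicate 1 or 2. With the time course as a replicate block, limma called 9 members, and 9 were at an unadjusted p under 0.05 (7 without the block). The share of all genes called in that blocked fit is not given here. The median gene differed by 0.44 in that comparison, and centred on the median of all genes UBQ10 and TIP41-like turned to -0.16 and -0.23 and only SAND (0.55) remained called higher. Between vcs sov and vcs, UBQ10 alone was called, at 0.91 (adjusted p = 2.03e-07), where 35.5% of genes were called. With the replicate block SAND (0.46) and EF1a (-0.31) were called as well, where 48.1% of genes were. Centred on the median of all genes 6 members were called, where 26.3% of genes were: UBQ10 higher (0.43), and PP2AA3 (-0.38), ACT8 (-0.53), GAPC1 (-0.57), ACT2 (-0.59) and EF1a (-0.79) lower. In sov against WT, no member and no gene at all (0.0%) was called, with no member at an unadjusted p under 0.05.

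Decline over the first 120 min was also measured as a slope. Each of the 16 courses (a genotype and replicate number) gave a slope of log2 RPM on time, after scaling to 50 transcripts. These had the highest mean slopes before scaling, rising most or falling least relative to all reads. None of them was a member. UBQ10 declined by -0.72 ± 0.07 log2 units per h in WT, -0.84 ± 0.14 in sov, -0.73 ± 0.05 in vcs, then -0.84 ± 0.16 in vcs sov (SD, n = 4). These slopes correspond to half-lives of 83.3, 71.8, 82.0 and 71.6 min. SAND declined by -0.41 ± 0.13 in WT, -0.52 ± 0.05 in sov, -0.28 ± 0.07 in vcs, then -0.28 ± 0.13 in vcs sov, or half-lives of 145, 116, 216 and 217 min. UBC21 declined by -0.33, -0.44, -0.26 and -0.17 and TIP41-like by -0.27, -0.37, -0.22 and -0.20 in the same order. The other 6 members had half-lives of 265 to 546 min in WT, the longest being that of EF1a. These half-lives hold only after the scaling, which sets the 50 genes as stable. Unscaled on nuclear RPM, the WT slope was -0.39 for UBQ10 and -0.09 for SAND but 0.22 for EF1a, and the median gene's was -0.16 rather than -0.49. In vcs sov, replicate 4 had the steepest scaled slopes of UBQ10 (-1.03), SAND (-0.46), TIP41-like (-0.39), UBC21 and PP2AA3. Its slopes of ACT2, ACT7, GAPC1 and EF1a were the shallowest. The other vcs sov courses of SAND ran from -0.24 to -0.19 and those of TIP41-like from -0.17 to -0.06. The vcs sov means and half-lives therefore lean on 1 course.

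Among all 15289 genes with a slope, 24.6% were steeper than UBQ10 in WT and 4.95% in vcs sov. SAND had 59.4% of genes steeper than itself in WT, and the other 8 had 71.3% to 96.6%. From 120 to 480 min, UBQ10 went from 1027 ± 69.5 to 325 ± 36.9 nuclear RPM in vcs and from 1180 ± 26.6 to 781 ± 44.2 in vcs sov (SD, n = 4).

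In limma, 3 members declined more slowly in vcs sov than in sov, where 50.6% of all genes were called. They were UBC21 (0.26, adjusted p = 0.00049), SAND (0.24, adjusted p = 0.00516) and TIP41-like (0.18, adjusted p = 0.0363). TIP41-like lost its call without replicate 1, 2 or 3 (adjusted p = 0.136, 0.221 and 0.0738) and SAND without replicate 2 (adjusted p = 0.0615). No member was called in vcs against WT (22.9% of genes called), in vcs sov against vcs (10.1%) or in sov against WT (0.0%), and none of these slopes reached an unadjusted p under 0.05. Over 0 to 240 min 4 members were called slower in vcs against WT, where 50.9% of genes were called, namely SAND (0.15), UBC21 (0.14), TIP41-like (0.13) and PP2AA3 (0.07), and EF1a was called faster in vcs sov against vcs (-0.10), where 23.4% were. For UBQ10, not called, the slope difference was -0.01 (SE 0.08) in vcs against WT and 0.00 (SE 0.08) in vcs sov against sov.

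**Figure D4:**
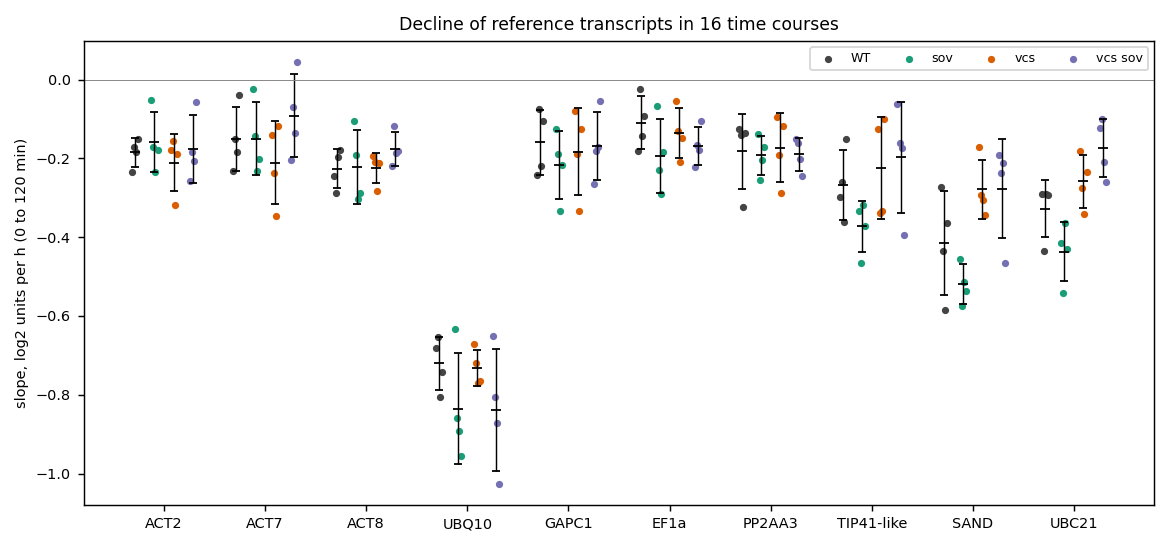
Slopes of decline over 0 to 120 min in log2 units per h, for each reference transcript and genotype. They were scaled to the 50 transcripts with the highest slopes before scaling. Points are the 4 courses and bars the mean ± SD. UBQ10 lies apart, between -1.03 and -0.63 in all 16 courses. The means of SAND and UBC21 lie higher in vcs sov than in its sov control, and the SAND courses of these genotypes overlap.

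Taking all genotypes and times as 32 group means, the members ranged from among the steadiest to among the most variable transcripts. The SD of the group means of log2 nuclear RPM was 0.13 for TIP41-like, 0.17 for ACT8, 0.19 for PP2AA3, 0.25 for ACT2 and 0.25 for GAPC1. It was 0.30 for EF1a, 0.38 for UBC21, 0.43 for SAND, 0.54 for ACT7 and 0.85 for UBQ10. Among 9045 nuclear genes of mean 10 RPM or more, whose median SD was 0.43, 1.72% had a smaller SD than TIP41-like, 5.19% than ACT8 and 8.57% than PP2AA3. The share was 50.3% for SAND, 65.0% for ACT7 and 87.2% for UBQ10. The SD between replicates of a group was 0.16 for TIP41-like and 0.11 for ACT8. On RPM as deposited the order changed, with PP2AA3 (0.17), EF1a (0.19) and ACT2 (0.20) lowest and TIP41-like and ACT8 both at 0.35. Over 0 to 120 min alone, UBQ10 (0.52) and ACT7 (0.53) were the most variable.

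**Figure D5:**
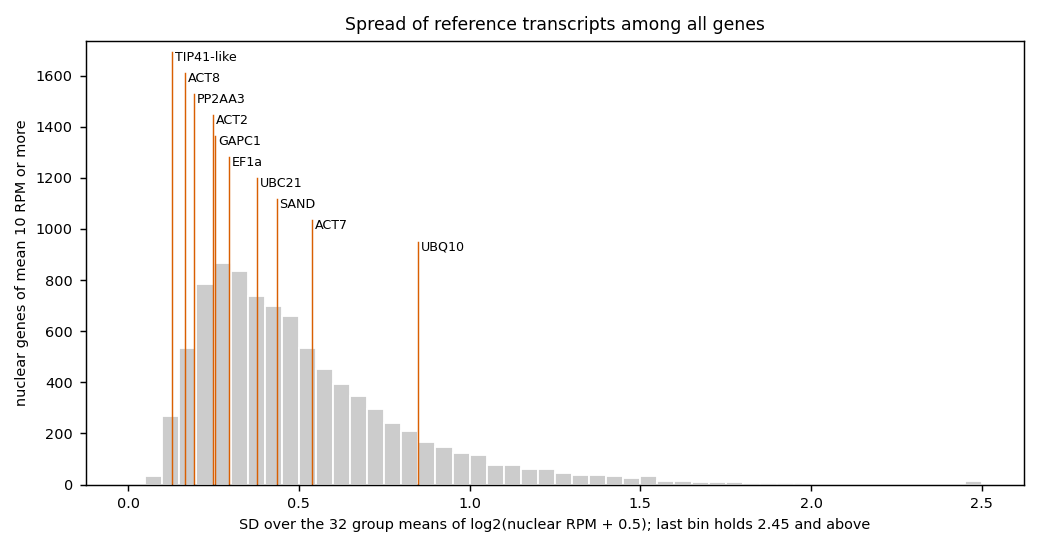
Number of nuclear genes (y axis) by the SD of their 32 group means of log2 nuclear RPM plus 0.5 (x axis, bins of 0.05), for the 9045 genes of mean 10 RPM or more. Lines mark the 10 reference transcripts, whose heights carry no value, from TIP41-like at 0.13 to UBQ10 at 0.85.

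By the spread of each member's log2 ratio to the other 9 over all libraries, which needs no scale, ACT8 had the lowest mean SD (0.41), then TIP41-like (0.43) and PP2AA3 (0.45), and UBQ10 the highest (0.93). At 0 min alone, ACT8 again had the lowest (0.28) and ACT7 the highest (0.54). The steadiest named genes among 2188 of mean 50 RPM or more were GAUT1, PGM2, SCE1, BCA4 and GC5, with an SD of 0.06 to 0.09 on nuclear RPM. They were picked by this SD, so its lying below that of every member is no separate result.

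For each member the nuclear gene with the most similar pattern over the 32 group means was listed, as a description over points that share libraries and scale. ACT7 went with MT2B (r = 0.99), UBQ10 with OTP51 (0.98), GAPC1 with GAMMA CAL2 (0.98), UBC21 with AT3G55140 (0.99) and SAND with AT1G31780 (0.99). EF1a went with AT5G19510 (0.98), ACT8 with AIM1 (0.97), PP2AA3 with RRA3 (0.94) and TIP41-like with AT3G45770 (0.85). The closest to ACT2 was another member, EF1a (0.96), and ACT2 and UBQ10 ran opposite to each other (-0.91).

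Relatives of the members were tested in the same fits. Of 6 other ubiquitin genes, 2 were called higher in vcs against WT (36.3% of all genes) and 4 in vcs sov against sov (42.5%), and none lower. UBQ3, a polyubiquitin gene, was higher by 1.10 and 1.17, UBQ4 by 0.71 and 0.90, and UBQ11 by 0.22 (adjusted p = 0.179) and 0.73 (adjusted p = 7.12e-05). At 480 min in WT, 2 of the 6 had risen and 3 had fallen, where 13.6% of all genes were higher and 66.8% lower. UBQ11 had fallen by -2.16, close to UBQ10, with which it shares sequence, while UBQ4 had risen by 0.58. Among actins with enough reads, ACT1 was higher (0.47 and 0.45) and ACT3 lower (-0.45 and -0.75) in both comparisons, and ACT11 lower in vcs alone (-0.48, adjusted p = 0.00374), with -0.01 in vcs sov against sov. The 3 other EF1a genes were not called in vcs and all 3 were lower in vcs sov against sov, by -0.48 to -0.58. GAPC2 was higher by 0.39 and 0.52. PP2AA2 was at 0.28 (adjusted p = 0.0512) in vcs and higher by 0.72 in vcs sov against sov, opposite in sign to PP2AA3. UBC10 was higher by 0.64 and 0.80.

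Of 13 further genes proposed as references for Arabidopsis, 12 had enough reads to test. In vcs against WT, 3 were called higher and 1 lower, where 49.4% of all genes were called, and in vcs sov against sov 3 higher and 4 lower, where 69.6% were. AT5G15710 was higher by 0.77 and 0.92, AT5G46630 by 0.59 and 0.73, and ROC3, a cyclophilin gene, by 0.60 in vcs and 0.09 (adjusted p = 0.48) in vcs sov against sov. AT5G55840 was at -0.07 (adjusted p = 0.666) in vcs and lower by -0.76 in vcs sov against sov. At 480 min in WT, 3 of the 12 had risen and 6 had fallen, beside the same 13.6% and 66.8% of all genes. Their median change was -0.14, beside 0.29 for the 10 members and -0.78 for all genes.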

How the data were processed

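Per the submitters' processing notes, the software named was TopHat2 2.0.12 with Bowtie2 2.2.3, HTSeq 0.6.1, R 3.1.0, SAMtools and FastQC, with TAIR10 as the genome, and the gene annotation, filters and strand setting are not given in the sources used here. The authors deposited RPM per gene and library, per the file headers. Every deposited RPM value above 0 came out as a whole number of reads within 0.001 reads (100.0% of values), and these recovered reads were tested with edgeR 4.0.16 and DESeq2 1.42.0 as alternatives. edgeR called 8957 genes in vcs against WT and 13530 in vcs sov against sov. The authors also deposited mean RPKM per group, means as a ratio to 0 min, and their own DESeq2 log2 fold changes with each adjusted p-value, per the file headers, and these are quoted only as the authors' values. Library sizes, also deposited, were left aside because the RPM give them.

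From the RPM, nuclear RPM was computed over 28496 nuclear genes (133 plastid and 146 mitochondrial genes left out) and tested as log2 of the value plus 0.5, since the pseudocount keeps 0 finite and understates changes of low genes. limma 3.58.1 in R 4.3.3, with trend and robust settings, was fitted to genes of mean 1 RPM or more in at least 1 group: 19343 at 0 min over 16 libraries and 19855 over all times, with 1 mean per genotype and time. Slopes used 96 libraries and 15289 genes of at least 2 RPM at 0 min. They were scaled to the 50 nuclear genes of mean 10 RPM or more at 0 min with the highest mean slopes before scaling. All adjusted p are two-sided, Benjamini-Hochberg over all genes of a fit, with 0.05 as threshold. The fits at 0 min, scaled to 1 gene, over times and of slopes were each tested on 1 simulated data set. Slopes were tested there without the scaling to 50 genes, so the scaled slope fit was not tested. The fit scaled to 1 gene, used for ratios, made many false calls. The false share of calls also lay above 0.05, by far less, in the 0-min, time and unscaled slope fits. Few genes were changed in the simulation and libraries were drawn independently, so these shares need not hold for the real data. Floors cover counting error only.

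The members and gene lists were chosen with earlier results of these data known. All 10 members are named. Of other lists, up to 3 genes with the largest called change are named, further list genes being named after their values were seen. For each member the most correlated gene of mean 10 RPM or more is named, and the 5 steadiest genes with a symbol and mean 50 RPM or more. Same-numbered libraries of vcs and of vcs sov all correlated by over 0.1 between 0 and 480 min (0.19 to 0.48). Those of WT and sov did so in part. Values with the time course as a replicate block therefore stand beside results within or between vcs and vcs sov where a call changed. For vcs sov against sov they stand beside the 480-min change. This choice was made after the calls with the block were known. Alternatives were the scale, pseudocount, filter, count tools, slope window, a replicate block and leaving out each replicate.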

Additional observations from a re-analysis of the deposited data

Results flagged for a closer look

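Within groups of 4 libraries, 4 values lay far from the other 3 among 88 groups examined, where chance flags about 1 in 20 groups. UBQ10 was at 729 RPM as deposited in WT at 0 min, replicate 3, against 605, 594.6 and 614 in the others. EF1a was at 1421 RPM in sov at 0 min, replicate 3, against 1252, 1273 and 1258. UBC21 was at 9.57 RPM in sov at 0 min, replicate 1, against 11.7, 11.8 and 11.7. The nuclear share of reads in vcs sov at 480 min was 74.19% in replicate 1 and 64.6%, 65.3% and 64.9% in the others.

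The change from 0 to 480 min differed between genotypes in 9 member tests by limma with adjustment over all genes. In vcs against WT, where 31.0% of all genes were called, the differences were 0.592 for SAND, -0.3663 for UBQ10 and 0.6434 for UBC21. In vcs sov against sov, with 51.1% of genes called, they were 1.211 for SAND, -0.3963 for ACT2, 0.4955 for UBQ10, 0.4249 for TIP41-like and 0.8013 for UBC21. In vcs sov against vcs, with 35.5% called, the difference for UBQ10 was 0.9063. The slopes over 120 min differed in vcs sov against sov, where 50.6% of genes were called, by 0.2426 log2 units per h for SAND, 0.1751 for TIP41-like and 0.2638 for UBC21.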

How the results depend on the processing

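Of the single-member values recomputed under alternatives, 660 kept their direction and side of the threshold, 69 lost the call, 28 gained one and 47 turned sign; the cause was not tested. At 0 min in vcs against WT, ACT2 turned to -0.18 centred on the median, -0.14 in edgeR and -0.14 in DESeq2, and ACT8 to -0.21, -0.17 and -0.18. On RPM as deposited, GAPC1 turned to 0.26, EF1a to 0.29, PP2AA3 to 0.11 and TIP41-like to 0.26. In vcs sov against sov, RPM as deposited gave 0.36 for ACT2, 0.22 for EF1a and 0.25 for PP2AA3, and centring gave -0.0542 for GAPC1 and -0.16 for TIP41-like (-0.12 in edgeR, -0.11 in DESeq2). For 480 against 0 min, RPM as deposited gave -0.13 for PP2AA3 in WT, -0.0659 in sov, -0.0624 for TIP41-like and -0.10 for UBC21 in vcs, and -0.11 for SAND in vcs sov. Centring, edgeR and DESeq2 on 0 and 480 min gave TIP41-like 0.85, 0.55 and 0.64 in WT and 1.01, 0.71 and 0.80 in sov. They gave UBC21 0.54, 0.24 and 0.32 in WT and 0.62, 0.32 and 0.42 in sov, and SAND 0.465, 0.19 and 0.26 in vcs. Centred, the 480-min change in vcs sov against sov was -0.16 for UBQ10 and -0.23 for TIP41-like.

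Counts moved by over 1.5 times as follows. Scaled to EF1a, 6210 genes were called in vcs against WT (9550 on nuclear RPM), and scaled to ACT7, 6867 in vcs sov against vcs (10724). RPM as deposited called 6 members in vcs sov against vcs (3 on nuclear RPM; 58.8% of all genes called), 3 in the interaction (41.6%), 4 at 480 min in vcs (81.4%), 5 at that time in vcs sov (66.6%), and 1 for the 480-min change in vcs against WT (27.6%). Centring, edgeR and DESeq2 each called 1 member in the interaction (0 in limma), where their shares of all genes called are not given here. Centring called 6 members for the 480-min change in vcs sov against vcs. With no filter, 1 gene differed in its 480-min change in sov against WT. Slopes over 0 to 60 min called 1754 genes in vcs against WT, 2746 genes and 1 member in vcs sov against sov, and 37 genes in vcs sov against vcs. Over 0 to 240 min they called 7783 genes and 4 members in vcs against WT, and 3582 genes and 1 member in vcs sov against vcs, where unscaled nuclear RPM called 2677 genes. The SD over groups on RPM as deposited was 0.354 for ACT8, 1.09 for UBQ10, 0.353 for TIP41-like, 0.689 for SAND and 0.638 for UBC21, and over 0 to 120 min 0.52 for UBQ10.

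Leaving out each replicate in turn gave 5 to 7 genes called in sov against WT at 0 min, 3 to 5 members in vcs against WT, 1 to 3 in vcs sov against vcs, 0 to 1 in the interaction and 5 to 9 in vcs sov at 480 min. It gave 1 to 3 members for the 480-min change in vcs against WT and 3 to 5 in vcs sov against sov, the lowest both without replicate 2. The share of all genes called in each of these fits is not given here, so the member counts stand without that comparison. Slopes gave 1941 to 2980 genes in vcs against WT, 1 to 3 members and 4969 to 7774 genes in vcs sov against sov, and 264 to 1497 genes in vcs sov against vcs, these lowest without replicate 2 except 1941 without replicate 3. Single values ranged over 0 in vcs against WT for ACT2 (-0.0621 to 0.12), ACT8 (-0.0693 to 0.0846) and EF1a (-0.11 to 0.0281), in vcs sov against sov for GAPC1 (-0.0283 to 0.28) and TIP41-like (-0.0152 to 0.15), and for SAND at 480 min in vcs sov (-0.0349 to 0.13).

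Replicate numbers were shared between genotypes, but same-numbered libraries deviated together only in part: 24 correlations ran from -0.08 to 0.36, with 16 over 0.1. Between 0 and 480 min within a genotype, the 16 correlations of same-numbered libraries ran from 0.0555 to 0.48, with 12 over 0.1, and all 16 libraries at 480 min correlated best with their own number, a hint from the data and not the design. With the time course as a replicate block, 9 members differed in their 480-min change in vcs sov against sov (5 without the block), 3 in vcs sov against vcs (1 without), and 11 genes in sov against WT (0 without). Without the block, 51.1% of all genes were called in vcs sov against sov and 35.5% in vcs sov against vcs. The share with the block is not given here for vcs sov against sov, so the 9 is not a result about the members. UBC21, SAND and TIP41-like had the lowest counts, down to 73, 105 and 104 reads in a library.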
